A study of Mus musculus with 10 samples.

Results

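The Sox genes of groups B, E and F were described by the length of chromatin that H3K27me3 peaks covered at each gene in 5 mouse lymphoma lines. The 10 genes were taken by name, namely Sox1, Sox2, Sox14 and Sox21 of group B, Sox8, Sox9 and Sox10 of group E, and Sox7, Sox17 and Sox18 of group F. Of these, 9 were found in the mm9 GENCODE annotation, which holds 22380 protein-coding genes. Sox1 is not listed there under its symbol. It was placed by an exact match of its RefSeq promoter to the mm9 genome, and its values are given apart from the counts over the other 9 genes. The gene window ran from 5 kb upstream of the transcription start site (TSS) to the end of the gene. Sox3, also of group B, was not among the listed genes and is counted with the other Sox genes.

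The parental line is a B-cell lymphoma line of genotype Eμ-Myc Cdkn2a-/- from a C57BL/6J mouse. In this model an immunoglobulin heavy chain enhancer drives Myc in cells of the B lineage, and Cdkn2a is deleted in every line. R100, R500, R1000 and R4000 were derived from it under escalating mafosfamide, an alkylating agent, at 100, 500, 1000 and 4000 nM. They were harvested on days 10, 18, 23 and 37, the last of which is later than the length of the escalation in the series design. The chromatin came from lines cultured without mafosfamide. All 5 lines descend from 1 tumour line, and the study calls the resistant lines sub-clones, so each condition is 1 line with 1 peak list. The study describes biological replicates of these profiles, but a single list per line does not show their spread. No difference between lines was tested, and the sequencing depth behind each list is unknown. The lists held 10778 distinct peaks for the parental line, with 25180 for R100, 21888 for R500, 9595 for R1000 and 6820 for R4000. They covered 1.63, 5.04, 4.53, 1.61 and 1.07 Mb. Every length at a gene is to be read beside these totals, because whether the totals follow the mark or the depth cannot be told apart. Among 8 B-cell marker genes, which the labelled cell type should express, none had a covered base in the parental line, where 2889 of all 22380 protein-coding genes had any, so a count of 0 among 8 says little. In R100, R500, R1000 and R4000, 3, 4, 2 and 1 of them were covered over at least 150 bp, beside 21.7, 17.0, 8.86 and 7.05% of all protein-coding genes. The lists hold no expression values and do not check the cell type.

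Sox proteins are transcription factors that bind and bend DNA through a high mobility group domain related to that of Sry. Group B genes act in neural progenitors and, in the case of Sox2, in pluripotent cells. Group E genes act in neural crest, cartilage, glia and testis, and group F genes in endothelium and endoderm. H3K27me3 is placed by the polycomb repressive complex PRC2 and is typically found at CpG-rich starts of developmental genes that a cell type does not use.

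The CpG-rich sequences at these genes are shown because coverage differed between them although all are dense in CpG. The stretches are the 250 bases upstream of the TSS in mm9, read 5′ to 3′ on the strand of the gene, with each CpG in capitals. The Sox2 stretch lies at chr3:34548677-34548926 (plus strand), Sox1 at chr8:12395269-12395518 (plus), Sox7 at chr14:64562261-64562510 (plus), Sox21 at chr14:118636253-118636502 (minus) and Sox8 at chr17:25707632-25707881 (minus).
Sox2: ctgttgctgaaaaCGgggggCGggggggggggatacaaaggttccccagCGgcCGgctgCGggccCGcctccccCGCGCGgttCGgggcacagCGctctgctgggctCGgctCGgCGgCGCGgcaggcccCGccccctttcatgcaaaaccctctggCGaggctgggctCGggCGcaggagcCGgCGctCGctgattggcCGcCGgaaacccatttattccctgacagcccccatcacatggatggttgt
Sox1: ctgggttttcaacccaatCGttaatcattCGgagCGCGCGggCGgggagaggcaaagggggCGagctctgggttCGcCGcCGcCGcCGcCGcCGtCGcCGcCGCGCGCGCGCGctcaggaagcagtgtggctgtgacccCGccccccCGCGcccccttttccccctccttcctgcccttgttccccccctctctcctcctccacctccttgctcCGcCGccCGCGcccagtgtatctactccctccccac
Sox7: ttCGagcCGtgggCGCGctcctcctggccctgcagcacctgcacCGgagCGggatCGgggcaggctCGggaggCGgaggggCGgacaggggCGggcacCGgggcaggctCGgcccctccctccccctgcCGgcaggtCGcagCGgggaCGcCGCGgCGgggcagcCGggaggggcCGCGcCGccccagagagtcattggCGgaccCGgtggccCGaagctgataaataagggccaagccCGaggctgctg
Sox21: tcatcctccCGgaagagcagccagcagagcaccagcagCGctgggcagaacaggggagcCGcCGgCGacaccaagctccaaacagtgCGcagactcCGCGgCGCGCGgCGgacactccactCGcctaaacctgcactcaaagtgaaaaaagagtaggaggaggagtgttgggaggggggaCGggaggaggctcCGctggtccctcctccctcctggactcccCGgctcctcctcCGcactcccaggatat
Sox8: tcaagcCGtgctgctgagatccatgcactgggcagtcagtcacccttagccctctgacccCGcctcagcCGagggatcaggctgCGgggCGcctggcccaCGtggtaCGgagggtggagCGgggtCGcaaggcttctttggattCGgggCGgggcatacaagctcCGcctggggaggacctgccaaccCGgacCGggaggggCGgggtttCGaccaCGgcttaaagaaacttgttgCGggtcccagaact
These stretches hold 25 CpG sites at Sox2, 29 at Sox1, 28 at Sox7, 17 at Sox21 and 18 at Sox8, beside a median of 8 over all protein-coding genes. The Sox2 and Sox7 stretches had no covered base in any line, and the Sox1 stretch had 32 bp in R100 alone. At Sox21, all 250 bases were covered in R100 and 152 in R500. The Sox8 stretch was covered over 131 bp in R100 and 181 bp in R500. Thus the printed stretches with the most CpG sites, at Sox1, Sox7 and Sox2, were almost wholly outside the peaks. Sox21 and Sox8 carried peaks over theirs in R100 and R500 alone. The stretches not printed do not extend this order. Those of Sox14, Sox18, Sox9 and Sox10, with 16, 11, 11 and 6 CpG sites, had no covered base in any line. That of Sox17, with 8, had 6 covered bp in R100 alone. Sox2 had no peak anywhere in its window.

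A further set of stretches is shown because they were covered in 4 or 5 of the 5 lines. At Sox1, chr8:12394201-12394300 (plus strand), 1318 to 1219 bp upstream of the TSS, was covered in all 5 lines and holds 2 CpG sites. The longest Sox1 stretch covered in all 5 lines, of 650 bp and not printed, holds 25 CpG sites. At Sox1, chr8:12391601-12391850, 3918 to 3669 bp upstream, was covered in the 4 resistant lines and holds 24 CpG sites. It is the gap between the parental peaks at 4818 to 3919 and 3668 to 2269 bp upstream. At Sox8, chr17:25707151-25707300 (minus strand), 331 to 480 bp into the gene and wholly within coding exon, was covered in every line except R4000 and holds 13 CpG sites. At Sox7, chr14:64562651-64562700 (plus strand), 140 to 189 bp into the gene and coding, was covered in the 4 resistant lines and holds 7 CpG sites.
Sox1, all 5 lines: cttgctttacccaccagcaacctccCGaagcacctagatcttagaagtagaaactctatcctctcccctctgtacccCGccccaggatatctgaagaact
Sox1, resistant lines: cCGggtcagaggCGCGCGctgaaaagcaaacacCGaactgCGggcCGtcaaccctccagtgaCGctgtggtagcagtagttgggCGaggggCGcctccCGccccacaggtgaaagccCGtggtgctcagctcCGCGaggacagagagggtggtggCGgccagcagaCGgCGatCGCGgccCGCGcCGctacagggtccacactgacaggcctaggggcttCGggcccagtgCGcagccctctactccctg
Sox8, all but R4000: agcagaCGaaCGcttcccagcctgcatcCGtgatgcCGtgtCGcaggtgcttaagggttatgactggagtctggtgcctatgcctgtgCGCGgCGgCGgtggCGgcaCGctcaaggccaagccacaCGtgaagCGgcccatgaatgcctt
Sox7, resistant lines: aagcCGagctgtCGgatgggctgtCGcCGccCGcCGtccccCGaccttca

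The 10 genes fell into 4 kinds by coverage. Sox1 was broadly covered in every line. Sox21, Sox8 and Sox7 had short coverage in the parental line that was longer in R100 and R500. Sox17, Sox18 and Sox10 had a few peaks in some lines, and Sox2, Sox14 and Sox9 had none in any line. The plot of covered length by line shows the 10 genes side by side.

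**Figure D1:**
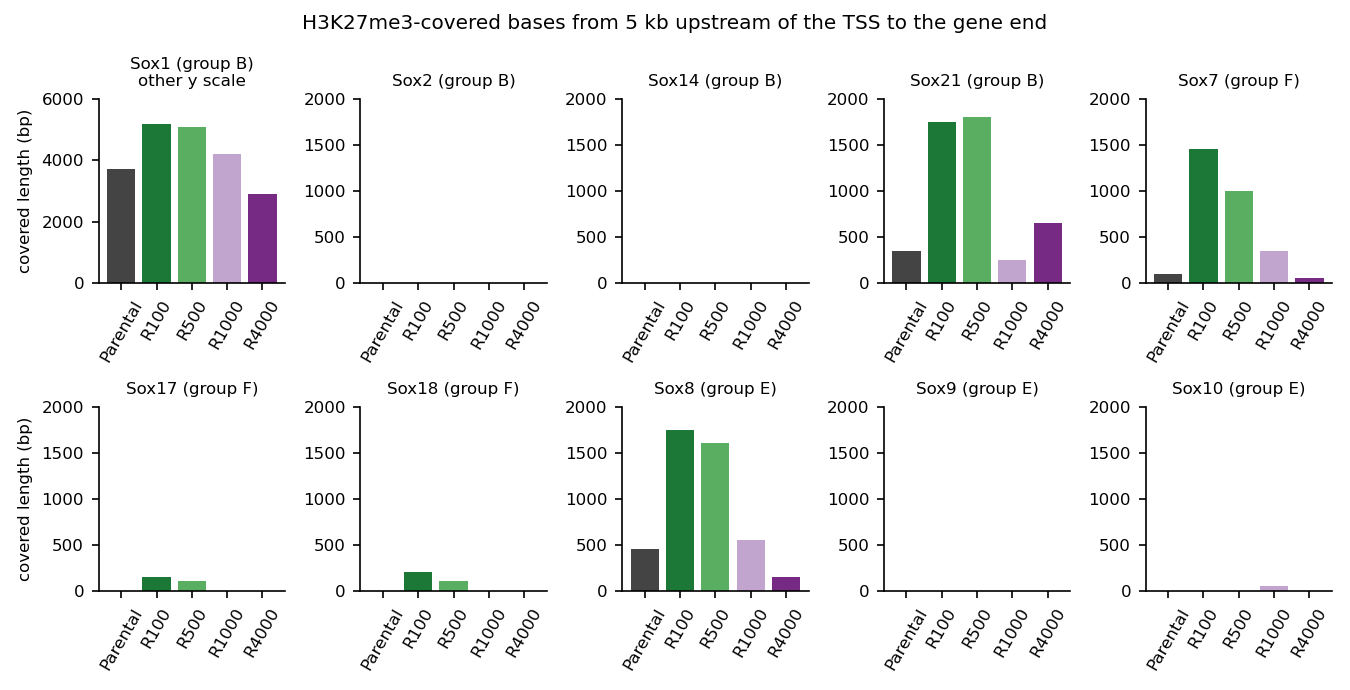
Covered length in bp (y axis, from 0) in each of the 5 lines (x axis) for each of the 10 genes, 1 bar per line and 1 peak list per bar. Sox1 has its own scale, up to 5182 bp in R100, while Sox21, Sox7 and Sox8 are longest in R100 or R500 and Sox2, Sox14 and Sox9 are at 0 bp throughout.

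Sox1, a group B factor of the early neural plate, was the most covered of the 10. Its window of 9037 bp (chr8:12390519-12399555) held 3705 covered bp in the parental line, while R100 had 5182 bp, R500 5087 bp, R1000 4187 bp and R4000 2882 bp. It held more covered bases than 99.9% of protein-coding genes in the parental line, 99.7% in R100 and R500, and 99.9% in R1000 and R4000. The resistant lines thus had 1.40, 1.37, 1.13 and 0.778 times the parental length, while the summed length over all protein-coding genes had 3.43, 3.01, 1.11 and 0.759 times its parental value. In R100 and R500 the ratios of Sox1 were below those of that sum, and in R1000 and R4000 they were near them. With 41.0% of its window covered in the parental line, Sox1 could not have reached 3.43 or 3.01 times. The lower ratios in R100 and R500 therefore do not show that it gained less than other genes. Under an alternative that joined peaks within 1000 bp, Sox1 was covered over 7087, 9037, 9037, 7687 and 8832 bp, which put R4000 above the parental line.

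Coverage continued on both sides of Sox1. Up to 20 kb from the TSS in both directions, parental peaks took up 10800 bp, followed by 15300 (R100), 14950 (R500), 9850 (R1000) and 7050 bp (R4000). The annotation places Sox1 inside Gm5607, a protein-coding entry on the same strand, and these genes cannot be told apart in a peak list. The Gm5607 window of 55959 bp held 12650, 18150, 17300, 10100 and 7050 covered bp. By covered length it ranked 1 of all 22380 protein-coding genes in the parental line, R1000 and R4000, and 3 in R100 and R500.

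**Figure D2:**
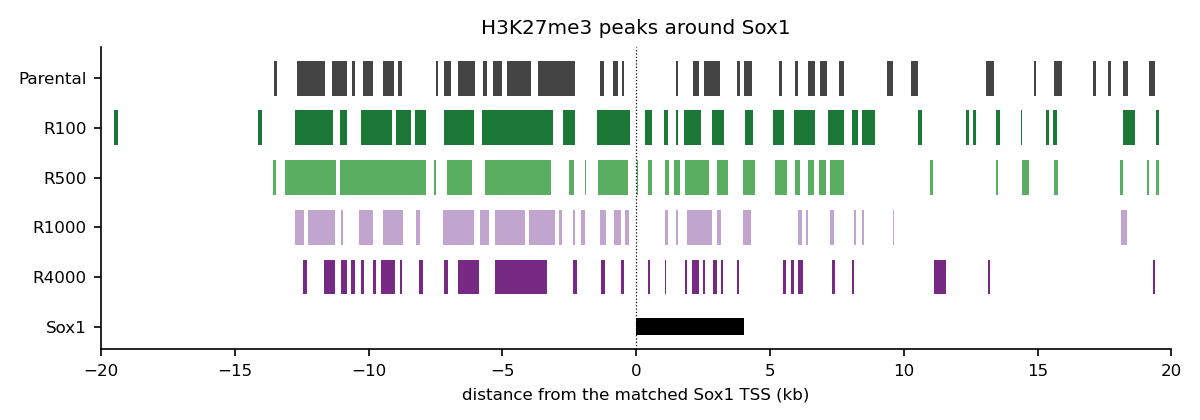
Peaks (coloured boxes) within 20 kb of the matched Sox1 TSS in each of the 5 lines (rows), with distance from the TSS in kb on the x axis and the Sox1 gene as a black bar. Peaks lie on both sides of the gene in every line, most densely upstream, and leave a gap at the TSS.

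Within the Sox1 window, 6737 bp were covered in at least 1 line and 1450 bp, or 21.5%, in all 5. The latter formed 6 stretches, of which 5 lie upstream of the TSS, the longest 650 bp, from 4818 to 4169 bp upstream. The remaining stretch of 200 bp lies 2132 to 2331 bp downstream of the TSS. In the parental line 72.9% of the covered bases were upstream, and 69.1, 62.6, 67.6 and 72.2% in R100, R500, R1000 and R4000. The median position of covered bases was 2716 bp upstream in the parental line and 3559 bp upstream in R4000. It was nearer the TSS in R100, at 1209 bp upstream, in R500, at 957 bp, and in R1000, at 2007 bp. The nearest covered base to the TSS was 469 bp away in the parental line, and this distance was 219 for R100, 32 for R500, 269 for R1000 and 432 for R4000. In no line did a peak reach the TSS itself.

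The other listed group B genes shared little with Sox1. Sox21, a factor that mostly represses neural progenitor genes, lies at chr14:118632454-118636252 on the minus strand. Peaks took up 350 bp of its window in the parental line, while R100 had 1750 bp, R500 1800 bp, R1000 250 bp and R4000 650 bp. Within this window, R100 and R500 stood apart from the other 3 lines, at 5.00 and 5.14 times the parental length. R1000 and R4000 were at 0.714 and 1.86 times. Coverage went on past the end of the gene. The 50 kb downstream of it held 1300 parental bp, followed by 1300 (R100), 1550 (R500), 800 (R1000) and 200 bp (R4000). There R100 did not exceed the parental line and R4000 lay below it. The ratios above therefore hold for the gene window alone. The parental peaks of the window lay 2552 to 2751 and 2952 to 3051 bp into the gene, near its 3′ end, with 1 further peak of 50 bp upstream. R100 and R500 in addition had peaks over the TSS region, from 448 bp upstream to the TSS in R100 and from 498 to 99 bp upstream in R500. R4000 had its widest Sox21 peak, 350 bp, from 152 to 501 bp into the gene. Of the 2850 bp of Sox21 covered in at least 1 line, none was covered in more than 3 lines. The lincRNA Gm4675 runs across the Sox21 start on the other strand, so these bases belong to both.

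Sox2, the pluripotency and neural progenitor factor, and Sox14, a factor of interneurons, had 0 covered bp in all 5 lines. The peak nearest to the Sox2 TSS was 7827 bp away in R500, and over 1 Mb away elsewhere, at 1408974 bp in the parental line, 1035024 in R100, 1046624 in R1000 and 2252077 in R4000. For Sox14 the nearest peak was 637163 bp away in the parental line and between 288163 and 577438 bp away in the resistant lines. Sox2 lies within the lincRNA gene Sox2ot. Group B therefore held both the most covered gene of the 10 and genes whose nearest peaks were far away.

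In group E, Sox8 alone had coverage of at least 150 bp. Sox8, expressed in neural crest, glia and testis, lies at chr17:25702837-25707631 on the minus strand. The parental line had 450 covered bp, R100 had 1750 bp, R500 1600 bp, R1000 550 bp and R4000 150 bp. The ratios to the parental line were 3.89, 3.56, 1.22 and 0.333, beside 3.43, 3.01, 1.11 and 0.759 for all protein-coding genes summed. In R100 and R500 a single peak of 1200 bp began 31 and 81 bp into the gene, across its first coding exon. The parental line had 3 peaks of 150 bp at 331 to 480, 781 to 930 and 1581 to 1730 bp from the TSS. R1000 had a peak of 450 bp from 331 to 780 bp and 1 of 100 bp nearer the TSS. R4000 had a peak of 50 bp upstream of the TSS and 1 of 100 bp from 481 to 580 bp, which began at the base after the first parental peak ended. The gene 2810468N07Rik overlaps the Sox8 window, and reads there cannot be assigned to either.

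Sox9, which directs cartilage and testis development, had 0 covered bp in all 5 lines, and its nearest peak was 836713 bp from the TSS in the parental line and at least 419113 bp away in the resistant lines. Sox10, of neural crest, glia and melanocytes, was at 0 bp in the parental line, R100, R500 and R4000. R1000 had 1 peak of 50 bp, 1020 to 1069 bp into Sox10, which is the width of 1 bin of the peak caller.

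All 3 group F genes had peaks in R100 and R500, and Sox7 alone reached 150 bp in both. Sox7, an endothelial and endodermal factor, lies at chr14:64562511-64569569 on the plus strand. The parental line had 100 covered bp, R100 had 1450 bp, R500 1000 bp, R1000 350 bp and R4000 50 bp. These are 14.5, 10, 3.50 and 0.500 times the parental length, and the parental base of 100 bp is 1 peak, so the ratios rest on 2 bins. That parental peak, 1910 to 1811 bp upstream, overlapped no peak of a resistant line. R100 had a peak of 1100 bp from 1360 to 261 bp upstream and a peak of 300 bp from 90 to 389 bp into the gene, on both sides of the CpG-dense promoter stretch printed above. R500 had peaks at 1160 to 611, 460 to 311 bp upstream and 90 to 339 bp into the gene, and left the same gap. The R1000 peaks were narrower, at most 150 bp, and the R4000 peak was the 50 bp of coding sequence printed above.

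Sox17, a factor of endoderm and arterial endothelium, was at 0 bp in the parental line, R1000 and R4000, while R100 had 150 bp and R500 100 bp. The R100 peak lay over the TSS, from 6 bp upstream to 143 bp downstream, and the R500 peak followed it directly, from 144 to 243 bp. Sox18, a factor of lymphatic and blood vessel endothelium, was at 0 bp in the parental line, R1000 and R4000, while R100 had 200 bp and R500 100 bp. A stretch of 50 bp from 1195 to 1244 bp into Sox18 was covered in both R100 and R500. With peaks of 50 to 150 bp, neither gene kept a covered base when the lists were cut to equal numbers of their widest peaks.

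**Figure D3:**
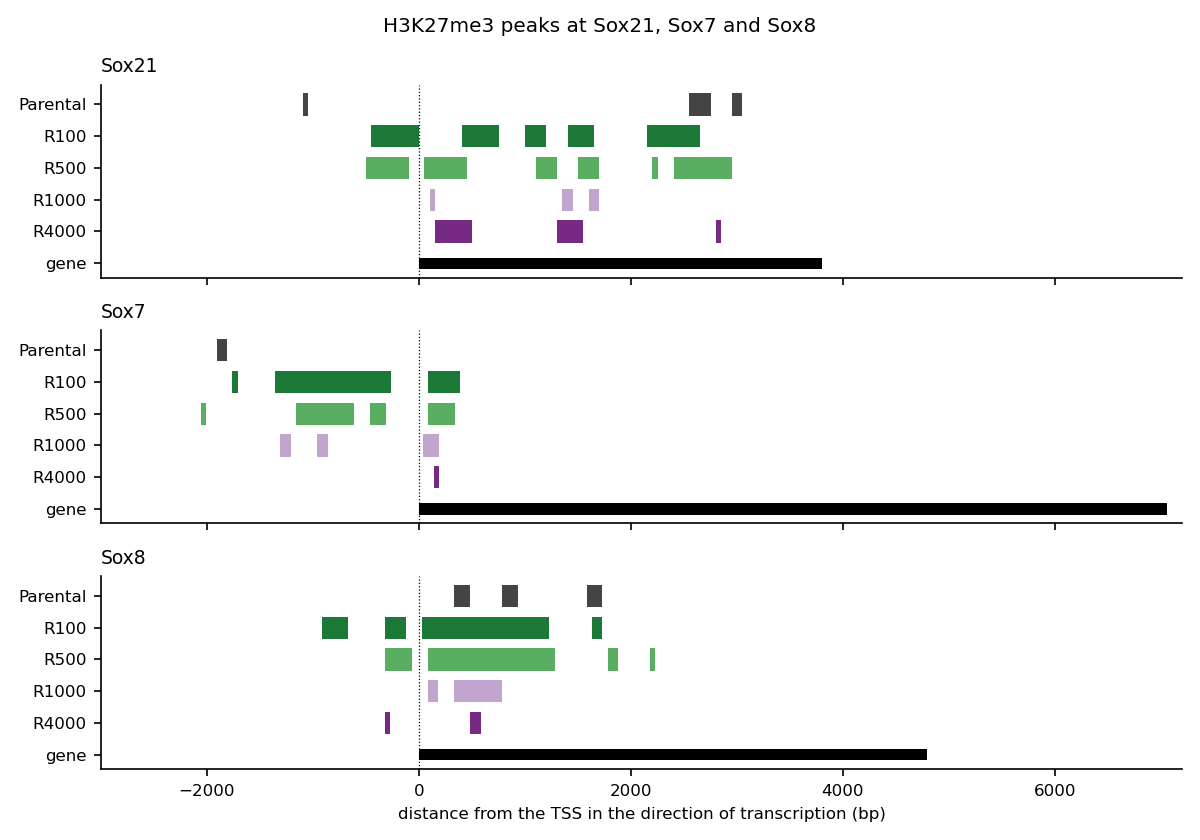
Peaks (coloured boxes) at Sox21, Sox7 and Sox8 in each of the 5 lines (rows), with distance from the TSS in bp along the direction of transcription on the x axis and the gene as a black bar. R100 and R500 hold the widest peaks, up to 1200 bp at Sox8, while the parental and R4000 peaks are at most 350 bp wide.

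Over the 9 annotated genes together, parental peaks took up 900 bp, followed by 5300 (R100), 4600 (R500), 1200 (R1000) and 850 bp (R4000). That is 1.03, 6.05, 5.25, 1.37 and 0.971% of their windows, beside 0.117, 0.402, 0.354, 0.130 and 0.0892% of the windows of all protein-coding genes, which are longer on average. Group F went from 100 bp to 1800 bp in R100 and 50 bp in R4000, and group E from 450 to 1750 and 150 bp. Group B without Sox1 and Sox3 went from 350 to 1750 and 650 bp. The 9 genes had 7, 16, 16, 9 and 6 peaks, and the median peak was 150, 225, 200, 100 and 75.0 bp wide.

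Coverage of at least 150 bp, the length of the 3 bins used in the study, was found at 2 of 9 genes in the parental line (Sox21 and Sox8). There 7.67% of all protein-coding genes passed. It was found at 5 genes in R100 (21.7% of all), 3 in R500 (17.0%), 3 in R1000 (8.86%) and 2 in R4000 (7.05%). Those added in R100 were Sox7, Sox17 and Sox18, and Sox7 was still past the threshold in R500 and R1000. Sox21 and Sox8 passed in all 5 lines, as did 4.35% of all protein-coding genes. Sox2, Sox14, Sox9 and Sox10 passed in no line, as did 74.9% of all. The study counted its 3 bins, each past a p-value cut-off, within the 5 kb upstream of the TSS alone. In that window 0, 3, 3, 1 and 0 of the 9 genes had at least 150 bp in the 5 lines, and 0 had it in all 5. The share of all protein-coding genes is not given for that window.

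Coverage of at least 2 times the parental length was found at 5 genes in R100 (19.1% of all protein-coding genes), namely Sox21, Sox7, Sox17, Sox18 and Sox8. In R500 it was found at 3 (14.3%), Sox21, Sox7 and Sox8, in R1000 at Sox7 alone (3.83%), and in R4000 at none (2.63%). For Sox17 and Sox18 the parental length was 0 bp, so no ratio is given. No gene was at or under 0.5 times its parental length in R100 (0.527% of all), R500 (0.581%) or R1000 (2.34%), and Sox8 alone did in R4000 (4.11%). Sox7 went from 100 to 50 bp in R4000 but was under 150 bp in the parental line and so was not counted. With 9 genes, 1 gene is a large share, and the counts in R100 and R500 stand beside lists that are the longest of the 5.

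The lines shared few covered bases at the 9 genes. Of the bases covered in either R100 or R500, 50% were covered in both, beside 34.4% over the genome. Of those covered in the parental line or R4000, none was covered in both, beside 17.6% over the genome. Across the 9 genes, 2900 bp were covered in 1 line, 2950 in 2, 950 in 3 and 300 in 4 lines. At Sox1 the share in common was between 42.1 and 73.0% for every pair of lines.

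Covered bases also differed in position between lines. The upstream 5 kb make up 51.4% of the 9 windows and exons 29.8%. Exons held 61.7% of the parental covered bases, against 45.6% for R100, 50.6% for R500, 66.3% for R1000 and 93.6% for R4000. Of the 796 exon bases of R4000, 650 were at Sox21, which has 1 exon, so all its covered bases within the gene count as exon. The R4000 share thus rests mostly on 1 gene. The upstream part held 16.7, 39.7, 30.4, 16.7 and 5.88%. The upstream bases of R100 were 1150 bp at Sox7, 450 bp at Sox8, 448 bp at Sox21, 50 bp at Sox18 and 6 bp at Sox17. Those of R500 were 750 bp at Sox7, 400 bp at Sox21 and 250 bp at Sox8. Of these 3, Sox7 alone had most of its covered bases upstream, 79.3% in R100 and 75.0% in R500, while Sox21 had 25.6 and 22.2% and Sox8 25.7 and 15.6%. In R4000 the upstream part was 50 bp at Sox8 alone.

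In sequence the 9 genes were richer in GC and CpG than most. Within 1 kb of the TSS their median GC content was 60.7%, beside 51.1% for all protein-coding genes. Their median ratio of observed to expected CpG was 0.709, beside 0.468. CpG density did not separate covered from uncovered genes, since the ratio was 0.806 at Sox2 and 0.756 at Sox9, both with no peak, and 0.759 at Sox1. Over all protein-coding genes, split into 5 equal groups by this ratio, the share covered in R100 was 4.71% in the lowest group and 35.1% in the highest.

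Within the genes, covered bases were CpG-rich at 4 genes. CpG sites per 100 bp in covered and uncovered bases were 7.12 and 2.76 at Sox21, 5.27 and 1.90 at Sox7, 5.6 and 2.88 at Sox18, and 5.02 and 2.18 at Sox8. The Sox18 value rests on a covered length of 250 bp. At Sox7, Sox18 and Sox8, at least 95.0% of the covered bases lay within 2 kb of the TSS in every line with a peak. The uncovered bases include the rest of each window, so CpG density and distance from the TSS cannot be told apart there. At Sox10 the only peak, of 50 bp, held 12 per 100 bp against 2.02 outside it. Sox1 went the other way, with 4.35 in covered and 7.04 in uncovered bases, as did Sox17, with 2 and 2.96 over a covered length of 250 bp. The uncovered Sox1 bases include most of the CpG-dense stretch at its TSS.

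**Figure D4:**
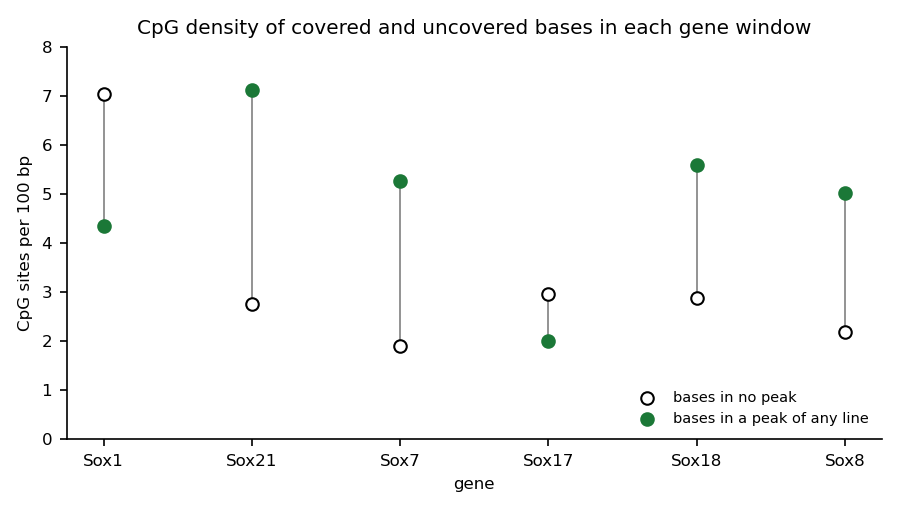
CpG sites per 100 bp (y axis) in bases covered in any of the 5 lines (filled) and in bases covered in none (open) for 6 genes (x axis). The filled point is higher at Sox21, Sox7, Sox18 and Sox8 and lower at Sox1, 4.35 against 7.04, and Sox17; Sox10, with 1 peak of 50 bp, is left out.

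Short motifs in the 250 bases upstream of the TSS were counted on both strands. The E-box CAGCTG was found at 1 of 9 genes, Sox18, beside 11.8% of all protein-coding genes. The E-box CACCTG was found at 2, Sox7 and Sox14, beside 17.0%. The GC box GGGCGG was found at 5, Sox2, Sox14, Sox7, Sox18 and Sox8, beside 39.6%. Covered and uncovered genes were both among those with a GC box.

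The other Sox genes had 5750 covered bp in R100 and 200 bp in R4000, beside 5300 and 850 bp for the 9 genes. Their windows include 958553 bp at Sox5 and 572401 bp at Sox6, far longer than any of the 9. Of 10 found in the annotation, 3, 6, 5, 2 and 0 were covered over at least 150 bp in the 5 lines in order of dose. The shares of all protein-coding genes were 7.67, 21.7, 17.0, 8.86 and 7.05%. Sox4, a group C factor that B-cell precursors need, was covered over 0, 850, 1250, 800 and 0 bp. Sox12, also of group C, was covered over 200, 1200, 1250, 600 and 100 bp, and Sox13, of group D, over 0, 1600, 550, 0 and 0 bp. The long group D genes Sox5 and Sox6 had 200 bp each in the parental line and 1550 and 400 bp in R100. Sox30 had at most 150 bp, and Sry, Sox3, Sox11 and Sox15 had 0 bp in all 5 lines. Sox3 is the closest relative of Sox1 and Sox2 in group B, and of these 3 Sox1 alone had a peak in its window.

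Other developmental families were covered at similar or larger shares, over windows of up to 101469 bp (Pax7) and 118879 bp (Tbx15). The windows of the 9 Sox genes were at most 14578 bp, and a longer window reaches 150 bp more easily. Of 8 Pax genes, 4, 5, 5, 3 and 3 were covered over at least 150 bp in the 5 lines, and of 16 T-box genes 6, 9, 10, 7 and 5. Of all protein-coding genes, 7.67, 21.7, 17.0, 8.86 and 7.05% were. The longest in the parental line were Pax6, an eye and neural factor, at 1350 bp, and Tbx2, a limb and heart factor, at 3450 bp. In R4000 they were Pax2 at 950 bp and Tbx2 at 3750 bp.

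**Figure D5:**
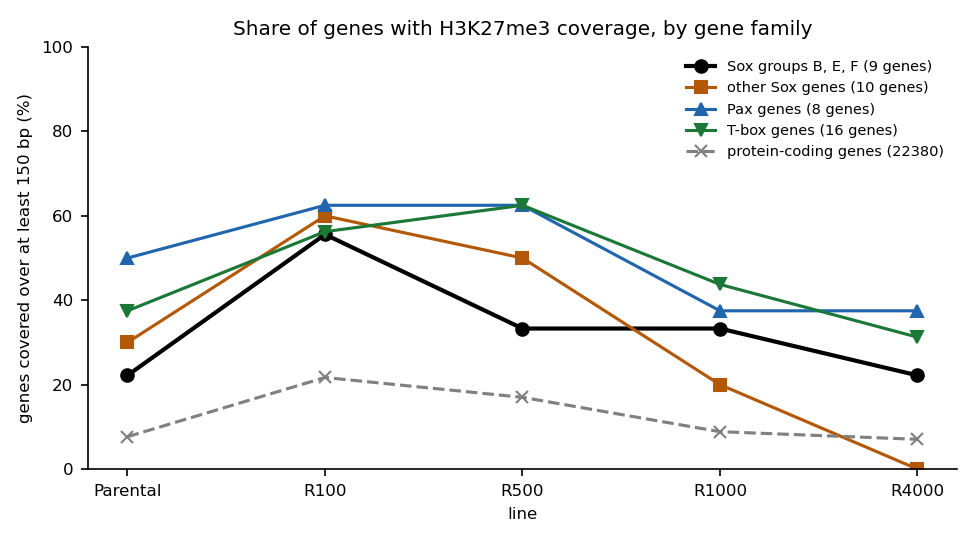
Percent of genes covered over at least 150 bp (y axis) in each of the 5 lines (x axis) for the 9 annotated Sox genes of groups B, E and F, the other Sox genes, Pax genes, T-box genes and all protein-coding genes. All 4 families lie above the dashed line of protein-coding genes in the parental line, R100 and R500, and in R4000 the other Sox genes are at 0. Window lengths differ between the families, and a longer window reaches 150 bp more easily. Sox3, of group B, is among the other Sox genes.

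Partners and targets of each Sox group were counted over 10 genes per list. Their windows ran up to 219301 bp (Mitf), and a longer window reaches 150 bp more easily. Pax6 of the group B list and Pax3 of the group E list are also among the Pax genes counted above. For group B, 5, 6, 7, 4 and 4 were covered over at least 150 bp in the parental line, R100, R500, R1000 and R4000. Pax6 was the longest in the parental line, and Nes, a neural progenitor filament gene, was the longest in R4000 at 1250 bp. For group E the counts were 3, 5, 4, 3 and 3, and Col2a1, the cartilage collagen gene, was the longest in both the parental line, at 1350 bp, and R4000, at 1100 bp. For group F the counts were 1, 2, 1, 2 and 1, and Gata4, a heart and endoderm factor, was the longest, with 3400 bp for the parental line, then 7100 (R100), 9050 (R500), 2050 (R1000) and 1350 (R4000). Flt4, a receptor of lymphatic endothelium, was the other gene past 150 bp in R100 and R1000, with 200 bp in each. The group F counts of 1 or 2 in 10 are close to the background of 7.67, 21.7, 17.0, 8.86 and 7.05% of all protein-coding genes in the 5 lines.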

How the data were processed

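H3K27me3 ChIP-seq was analysed for 5 lines, and RRBS of the same 5 lines was not analysed here. Chromatin was precipitated with an anti-H3K27me3 antibody and sequenced in 50-bp reads. The authors called peaks by Poisson statistics on counts in windows against input libraries. The submitters' processing notes name mm9 and Bowtie. The threshold of the lists and the pooling of replicates are not given in the sources used here. The authors deposited peak positions, with no count, score or p-value. Intervals lie on a grid of 50 bp, and every interval stands 2 times in the lists of R100 and R500, so distinct peaks were used.

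Each peak list was mapped to its line by its sample title. Covered bases were counted with numpy 2.4.6 under Python 3.11.15, and plots were made with matplotlib 3.10.9. The coverage step was tested on simulated data. Peak ends fell within the NCBIM37 (mm9) length of all 21 chromosomes checked, and genes were taken from GENCODE M1. A gene counted as covered at 150 bp or more. A higher or lower length needed a ratio to the parental line of at least 2 or its inverse, with 150 bp in the longer line. Sox1 was placed by its RefSeq (GRCm38.p6) promoter, and its window ends at the TSS plus the RefSeq gene length of 4037 bp. The table of promoters held 5 of the 10 genes, and the printed sequences were read from NCBIM37. Motifs may overlap each other.

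Named genes were all 10 listed genes, all other Sox genes and, of each further list, the longest covered in the parental line and in R4000. Flt4 was named after its values were seen. T-cell markers (6 genes) were covered over at least 150 bp at 2, 3, 4, 0 and 0 genes in the parental line, R100, R500, R1000 and R4000, and of 6 myeloid markers 1, Cd14, was in each line. Under the same rule 7.67, 21.7, 17.0, 8.86 and 7.05% of all protein-coding genes were covered, and with 6 genes per list such counts say little. Genes and lists were chosen with earlier results of these data known. The alternatives were the upstream 5 kb alone, 2 kb on both sides of the TSS, a minimum of 500 bp, peaks at least 500 bp wide, lists cut to their 6820 widest peaks, peaks within 1000 bp joined, and all annotated genes as background.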

Additional observations from a re-analysis of the deposited data

Results flagged for a closer look

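At 4 genes, 1 resistant line lay below the parental line in covered length while the other 3 lay above it. Sox1 was at 2882 bp in R4000, against 3705 bp in the parental line. Sox7 was at 50 bp in R4000, against 100 bp, and Sox8 at 150 bp in R4000, against 450 bp. Sox21 was at 250 bp in R1000, against 350 bp, while in R4000 it was at 650 bp. The higher R4000 value holds for the gene window alone, since the 50 kb downstream of Sox21 held 200 bp in R4000, against 1300 bp. R4000 has the shortest list of peaks, with 6820. The differences between lines were not tested, since each line has 1 list.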

How the results depend on the processing

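Counts are of the 9 annotated genes. The upstream 5 kb alone is the window in which the study counted its bins. There, genes covered over at least 150 bp numbered 0 in the parental line, 3 in R100, 1 in R1000, 0 in R4000 and 0 in all 5 lines. In the same window, genes at 2 times the parental length in R100 numbered 3, and genes at 0.5 times it or less in R4000 numbered 0. Within 2 kb of the TSS, 1 gene was covered in the parental line and 1 in all 5 lines, and 2 genes in R1000 and 1 in R4000 reached 2 times the parental length. With a minimum of 500 bp, 0, 3, 1 and 1 genes were covered in the parental line, R100, R1000 and R4000 and 0 in all 5, 3 in R100 and 0 in R1000 reached 2 times, and 0 in R4000 were at 0.5 times or less. With only peaks at least 500 bp wide, those counts were 0, 3, 0, 0 and 0, then 3 and 0, then 0. With lists of equal number, 3 genes were covered in R100, and 3 in R100 and 1 in R4000 reached 2 times. With peaks within 1000 bp joined, 2 genes in R1000 and 0 in R4000 were at 0.5 times or less. The causes were not tested beyond what each setting removes.

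The remaining counts stayed within 1.5 times, and the percent of genes covered moved by less than that with all annotated genes as background. Covered lengths of the 10 genes moved in 5 of 50 values with lists of equal number, 19 of 50 with wide peaks alone and 17 of 50 with joined peaks. The 50 values include genes in lines where they had no peak, such as Sox2, Sox14 and Sox9 in every line. Lists of equal number and wide peaks alone only remove peaks, so those values could not move there. Among values with a peak, the share that moved was therefore higher than these counts show. The lists give no depth, peak height or replicate spread, so a length cannot be read as a level of the mark. No paired analysis was possible because each line has 1 peak list and no result comes from a test.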
